A study of Mus musculus with 18 samples.

Results

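Ribosomal protein genes of the cytosolic ribosome were followed through mouse gastruloids that received a Wnt-activating pulse at either of 2 times. Members were taken by gene name: symbols of the form Rps or Rpl with a number and at most a short suffix, Rplp0 to Rplp2, and Rpsa, leaving out names with "-ps". This gave 89 of the 55385 genes of the count table, 36 named for the small subunit and 53 for the large subunit. The names were checked against the GENCODE M21 annotation, in which 6 of them (Rps4l, Rps3a2, Rps3a3, Rpl6l, Rpl32l and Rps12l1) are processed pseudogenes, so the name does not always stand for a protein-coding gene. Fau, Rack1, Rpl36al and Rps27rt, whose products belong to the ribosome or resemble its proteins, are among the genes that fall outside the name rule, and those with results are given separately.

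Gastruloids are aggregates of embryonic stem cells that elongate in culture and form cell types of the early embryo. All 18 libraries came from wild-type (WT) cells of the strain 129/SVEV, and gastruloids of a condition were pooled in 1 tube before RNA extraction. In the control arm CHIR, which blocks the kinase GSK3 and so switches on Wnt/beta-catenin signalling, was given from 48 to 72 h after aggregation. The early arm received it from 24 to 48 h. Each arm was collected at 48, 72 and 96 h with 3 libraries per group, so the control group of 48 h had received no CHIR. Whether the 3 libraries of a group stem from separate cultures is not in the labels, and p-values then measure only the spread between these libraries, which may be technical. Polyadenylated RNA was sequenced to 14841728 to 24536538 counts per library. CPM here means counts relative to a library size scaled by TMM, and FPKM also divides by transcript length. Genes count as called where the adjusted p was below 0.05 (edgeR quasi-likelihood test, Benjamini-Hochberg over 16041 tested genes).

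The gastruloid markers Pou5f1, Sox2, T, Cdx2, Tbx6 and Meox1 each had counts in every group and summed to 1230 to 2670 CPM per library. A single marker differed by 10.81 (log2) between controls of 72 and 48 h, so the sum does not give the level of each. The 4 blood markers summed to at most 1.28 CPM and the 4 trophoblast markers to at most 3.41 CPM. The 5 feeder and fibroblast markers summed to 6.57 to 39.3 CPM, highest in the control group of 96 h. The control libraries numbered 3 stood apart from the others of their groups in many genes, most at 96 h, where Pou5f1 had 474, 425 and 154 CPM in replicates 1 to 3. The early library of 96 h numbered 3 stood apart in the ribosomal proteins themselves: 81 of 87 tested members were above both other libraries of the group, against 37.4% of all tested genes.

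A ribosome is built from ribosomal RNA and a fixed set of proteins, one set for each subunit, which are needed in matching amounts. Their mRNAs are among the most abundant of a growing cell, and their translation is held together by a pyrimidine tract at the 5′ end, the TOP motif, read by the mTOR pathway through the protein LARP1. Several of these proteins have a second gene, a paralogue, often an intronless copy of an X-linked gene, whose use depends on the tissue: RPL10L and RPL39L are best known from the testis and RPL3L from skeletal muscle and heart. In bulk RNA, fewer cells of a type and less RNA per cell cannot be told apart.

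The results turn on 3 such pairs, Rpl10l with Rpl10, Rpl39l with Rpl39 and Rps4l with Rps4x. Each paralogue lies on an autosome and each partner on the X chromosome (GRCm38). Rpl10l is a single-exon gene at chr12:66283379-66284401, Rpl39l a gene of 3 exons at chr16:10170226-10174911, and Rps4l a single-exon transcribed processed pseudogene at chr6:148354656-148355598. Coding sequences were 85.0% identical between Rpl39 and Rpl39l (23 of 153 positions differed) and 84.7% between Rpl10 and Rpl10l (98 of 642). For the pseudogene Rps4l its transcript was aligned to the coding sequence of Rps4x, and 79.6% was identical (161 of 789 positions differed). The coding sequences of the first pair and the first 153 bases of the second, from the GENCODE M21 transcripts, are shown because short reads of a paralogue can be told from those of its partner only by the bases that differ. Capitals mark the bases that differ within a pair.
Rpl39: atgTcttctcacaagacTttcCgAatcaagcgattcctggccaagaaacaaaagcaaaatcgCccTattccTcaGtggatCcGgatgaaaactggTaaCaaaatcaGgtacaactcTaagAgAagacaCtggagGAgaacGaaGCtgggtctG
Rpl39l: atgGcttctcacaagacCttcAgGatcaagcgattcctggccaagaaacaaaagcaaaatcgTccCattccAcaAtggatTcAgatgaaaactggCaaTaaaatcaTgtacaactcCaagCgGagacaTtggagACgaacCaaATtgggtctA
Rpl10: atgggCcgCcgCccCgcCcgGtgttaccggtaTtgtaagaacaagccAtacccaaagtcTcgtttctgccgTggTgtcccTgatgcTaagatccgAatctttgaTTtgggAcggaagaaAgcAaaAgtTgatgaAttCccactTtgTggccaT
Rpl10l: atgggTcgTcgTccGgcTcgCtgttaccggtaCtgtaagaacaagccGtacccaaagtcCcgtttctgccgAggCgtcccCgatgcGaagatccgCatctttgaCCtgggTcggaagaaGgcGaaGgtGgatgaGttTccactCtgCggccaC
Of all 50-base words in its transcripts, Rpl39l shared 0% with any other gene's transcript, Rpl10l 7.6% and Rps4l 14.9%. The median over members was 20.9%, and Rps3a2 (90.2%), Rpl36 (81.1%) and Rps3a1 (71.0%) were among the genes whose counts are uncertain for this reason.

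The promoters of Rpl39 and Rpl39l, 100 bases before to 30 after the start in RefSeq (GRCm38.p6), are shown because Rpl39l changed strongly while Rpl39 did not, and both hold a motif, CCGGAAG or its reverse complement CTTCCGG, the core of ETS-family sites. Capitals mark CCGGAAG on either strand and, on the gene's strand, TTTCCG.
Rpl39 promoter, chrX:37085193-37085322, minus strand: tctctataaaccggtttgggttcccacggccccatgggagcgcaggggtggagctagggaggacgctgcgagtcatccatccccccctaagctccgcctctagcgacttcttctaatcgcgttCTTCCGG
Rpl39l promoter, chr16:10170128-10170257, plus strand: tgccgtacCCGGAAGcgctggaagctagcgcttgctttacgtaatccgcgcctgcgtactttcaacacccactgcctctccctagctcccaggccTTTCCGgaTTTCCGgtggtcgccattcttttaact
RefSeq promoters of 250 bases before to 50 after the start matched 64 of the 89 members by symbol. CCGGAAG on either strand was in 26 of these 64 genes (40.6%), against 9.93% of all genes with a promoter in the table. TTTCCG on the gene's strand was in 15 members (23.4%, against 5.54%), and CTCTTTCC on that strand in 8 (12.5%, against 1.76%). AAGATGGC, the YY1 core, was in 6 members (9.38%, against 3.19%), and CACGTG, the E-box bound by MYC, also in 6 (9.38%, against 8.09%), both searched on either strand. These are matches of letters and say nothing of binding.

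Together the 89 genes took about the same part of the mRNA in every library. Their share of all counts ranged from 5.817% to 6.597% over the 18 libraries, a ratio of 1.13 between the highest and the lowest. In the control arm the share was 5.902% ± 0.0265 (SD, n = 3) at 48 h, 6.417% ± 0.117 at 72 h and 5.892% ± 0.0828 at 96 h. The 3 control libraries of 72 h (6.289% to 6.520%) lay above all other control libraries. In the early arm it was 6.165% ± 0.117 at 48 h, 6.213% ± 0.0232 at 72 h and 6.163% ± 0.376 at 96 h. The wide SD of the last group came from 1 library, at 6.597% beside 5.958% and 5.933%. The small-subunit genes held 2.597% to 2.974% and the large-subunit genes 3.193% to 3.623%, and both were highest in that same library. The share of nuclear-encoded respiratory chain genes was also highest in the control group of 72 h (1.061% ± 0.003, against 0.9247% to 1.006% for the other group means), and its part in the result was not tested.

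**Figure D1:**
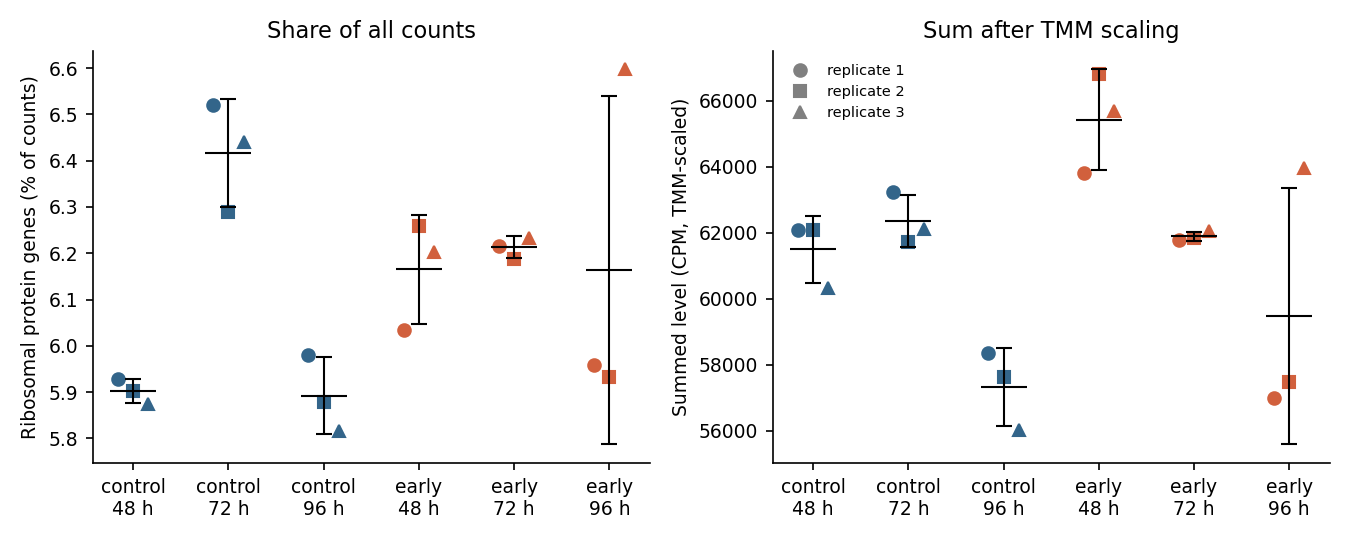
Share of all counts (left, % of counts) and summed level (right, CPM after TMM scaling) of the 89 ribosomal protein genes in each of the 18 libraries, controls in blue and early libraries in orange. Symbols give the replicate, and horizontal lines and bars the mean and SD of 3 libraries; the vertical axes do not start at 0. Early replicate 3 of 96 h stood at 6.597%, above every other library.

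The order of the groups depended on the scale. As a raw share the control group of 72 h was highest, whereas after TMM scaling the early group of 48 h was highest, at 65430 ± 1520 CPM against 62360 ± 784 for the control group of 72 h. The control group of 96 h had the lowest mean on both scales, at 57330 ± 1180 CPM, but did not stand apart. Its raw share overlapped that of controls of 48 h, and early replicates 1 and 2 of 96 h had 56980 and 57480 CPM. As a share of summed FPKM the controls of 48 h were lowest, at 17.32% against 17.64%. Against the library total alone, the median over all tested genes moved by 0.11 (log2) between the controls of 48 and 72 h and by -0.15 between the early 48 h and control 72 h groups. The median of the members less that of all genes lay between -0.10 and 0.12 in the 10 comparisons. It was the same on both scales, as it must be, because scaling shifts all genes of a library alike. Changes below are on the TMM scale, that is, relative to the bulk of the genes.

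Levels per length showed a compact group. Of the 89 genes, 81 had a mean of at least 100 FPKM. The highest were Rpl8 (1840 FPKM), Rplp1, an acidic protein of the stalk that recruits elongation factors (1800 FPKM), Rps12 (1710 FPKM), Rpl4 (1460 FPKM) and Rps18 (1440 FPKM). The lowest were Rps12l1 (0.081 FPKM), Rpl32l (0.138), Rpl3l (0.258), Rpl6l (0.635) and Rpl39l (3.91), of which Rps12l1 and Rpl32l had too few counts to be tested. Within the members' own counts, steady shares by their coefficient of variation over the 18 libraries were those of Rps7 (2.05%), Rps24 (2.31%), Rpl9 (2.32%) and Rpl23 (2.42%), ranked over groups among genes with at least 5 CPM. The most variable by the same ranking were Rpl10l (90.3%), Rps4l (34.7%), Rpl13a (18%), Rps10 (22.4%) and Rpl22l1 (13.9%).

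In 3 genes the count and FPKM tables gave very different levels. Rpl24, a large-subunit protein, had 0.975 CPM and 819 FPKM on average. Rps10 had 10.7 CPM and 702 FPKM, and Rpl13a 35.1 CPM and 939 FPKM, whereas the median ratio of FPKM to CPM over members was 1.02. On the same strand 47.0% of the exonic bases of Rpl24 lie within Gm28037, 20.6% of those of Rps10 within RPS10-NUDT3 and 29.4% of those of Rpl13a within Gm45713. The counts of these 3 genes are therefore treated as uncertain, and the part of the overlap was not tested.

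**Figure D2:**
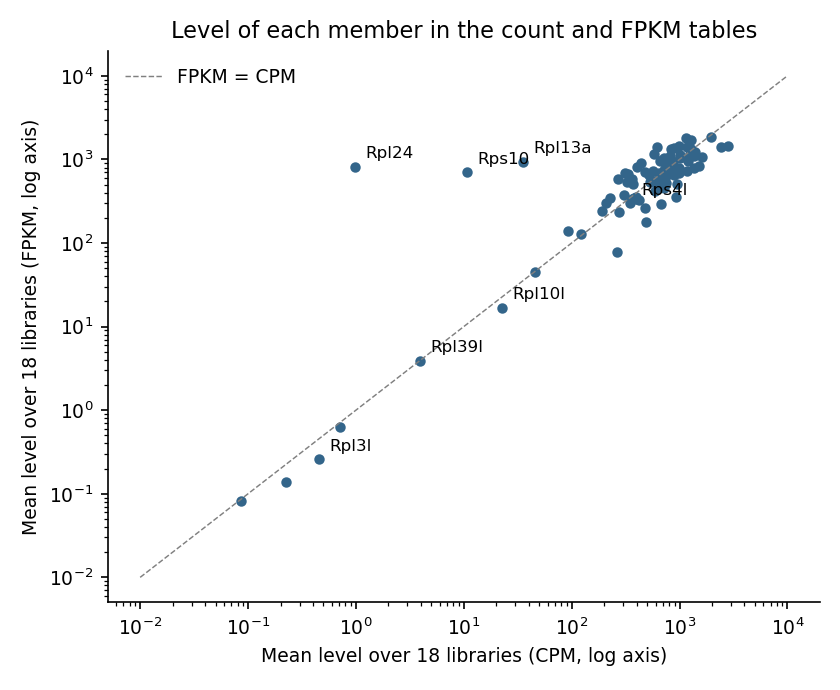
Mean level of each member over 18 libraries in the count table (CPM, horizontal log axis) and in the FPKM table (vertical log axis); the dashed line marks equal values. Rpl24, Rps10 and Rpl13a lie far above the line, and the 4 named paralogues lie near it.

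Change over age and between arms was concentrated in 4 paralogues. Rpl10l, Rpl39l, Rps4l and Rpl3l were set apart after their values were seen. The other 83 tested genes stayed within -0.73 to 0.66 (log2) in the 10 comparisons, and only Rpl24, the low-count gene above, passed the test with a change of at least 1.5-fold among them. In the control arm from 48 to 72 h, 4 members passed with at least 1.5-fold, all lower, against 33.2% of all tested genes that passed in either direction. The same held from 72 to 96 h (4 lower, against 27.0%). From 48 to 72 h in the early arm 3 did (all lower, against 17.0%), and from 72 to 96 h 2 (both lower, against 13.7%). Between arms of the same age the number was 1 at 48 h (higher in early, against 20.2%), 3 at 72 h (against 19.9%) and 5 at 96 h (4 higher and Rpl24 lower, against 30.7%). At the end of each arm's pulse and one day later it was 4 each, all higher in early (against 31.9% and 41.3%).

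Rpl10l, the copy of the large-subunit gene Rpl10 that replaces it in male germ cells, fell with age in both arms and was higher in the early arm at each age. Control libraries had 28.2, 31.5 and 44 CPM at 48 h, 5.01, 5.26 and 6.04 CPM at 72 h, and 1.22, 1.25 and 1.56 CPM at 96 h. Early libraries had 58.4, 55.4 and 62.7 CPM at 48 h, 26.2, 26.5 and 26.6 CPM at 72 h, and 7.9, 7.39 and 10.2 CPM at 96 h. No group overlapped a group of another age in its arm, and at each age every early library was above every control library. The change was -2.67 ± 0.15 (log2 ± SE, adjusted p = 4.45e-11) from 48 to 72 h and -2.03 ± 0.22 (adjusted p = 4.88e-07) from 72 to 96 h in controls. In the early arm it was -1.15 ± 0.13 (adjusted p = 1.31e-06) and -1.64 ± 0.14 (adjusted p = 2.09e-07). Early libraries were higher by 0.77 ± 0.12 at 48 h, 2.29 ± 0.15 at 72 h and 2.67 ± 0.21 at 96 h, with adjusted p of 5.73e-05, 1.7e-09 and 4.44e-09.

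Rpl10 itself, the partner, hardly moved. It had 918 ± 45.3, 1040 ± 42.0 and 958 ± 55.5 CPM in the control groups and 1060 ± 20.2, 1060 ± 21.4 and 1040 ± 51.8 CPM in the early groups (n = 3 each). Its largest called change was 0.21 ± 0.05 (adjusted p = 0.00239), higher in early at 48 h. Per length, Rpl10l made up 2.63% ± 0.764 of the pair in controls of 48 h and 0.0985% ± 0.0210 at 96 h, and 3.79% ± 0.308 and 0.573% ± 0.0716 in the early arm.

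Rpl39l, a paralogue of the small exit-tunnel protein gene Rpl39, fell most steeply. Control libraries had 7.79, 8.81 and 14.2 CPM at 48 h and 0.48, 0.208 and 0.65 CPM at 72 h. At 96 h only 2, 2 and 1 counts were left. Early libraries had 11.3, 9.76 and 10.6 CPM at 48 h, 1.39, 1.96 and 2.09 CPM at 72 h, and 0.774, 0.474 and 0.578 CPM at 96 h. At 48 h the arms overlapped and did not differ by the test (0.05 on the log2 scale). At 72 and 96 h every early library was above every control library, by 2.04 ± 0.36 (adjusted p = 0.000147) and 2.74 ± 0.60 (adjusted p = 0.000726). The steps were -4.54 ± 0.30 (adjusted p = 3.24e-10) from 48 to 72 h in controls and -2.55 ± 0.23 (adjusted p = 1.81e-07) in the early arm. Rpl39 stayed between 170 and 218 CPM in all libraries.

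Rps4l, a transcribed processed pseudogene related to the small-subunit gene Rps4x, was by far the most abundant of the 4. Control libraries had 504, 491 and 477 CPM at 48 h, 243, 238 and 262 CPM at 72 h, and 175, 146 and 172 CPM at 96 h. Early libraries had 488, 400 and 543 CPM at 48 h, 427, 440 and 435 CPM at 72 h, and 287, 307 and 292 CPM at 96 h. The arms overlapped at 48 h, and at 72 and 96 h all early libraries were above all controls. Its step was -0.99 ± 0.08 (adjusted p = 7.41e-09) from 48 to 72 h and -0.59 ± 0.08 (adjusted p = 7.71e-06) from 72 to 96 h in controls. The early arm fell by 0.56 ± 0.08 (log2, adjusted p = 4.49e-05) from 72 to 96 h, and its step from 48 to 72 h (-0.14) did not pass. Rps4l held 28.3% ± 0.848 of the FPKM of the pair with Rps4x at 48 h in controls, 16.1% ± 0.469 at 72 h and 11.9% ± 1.25 at 96 h. In the early arm it held 25.6% ± 3.07, 25.2% ± 0.580 and 19.9% ± 1.09. Rps4x kept 1230 to 1490 CPM throughout.

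**Figure D3:**
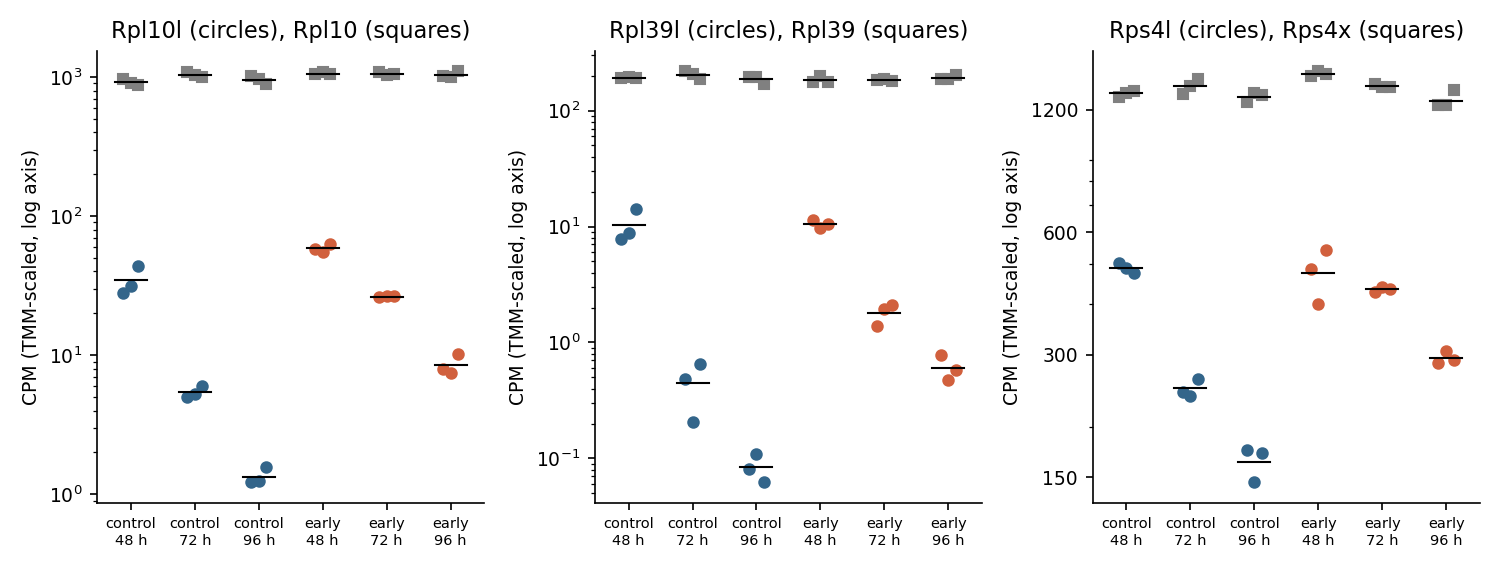
Level of Rpl10l, Rpl39l and Rps4l (circles, controls in blue and early libraries in orange) and of their X-linked partners (grey squares) in each library (CPM, log axis), with group means as lines. The paralogues fall with age and are higher in early libraries at 72 and 96 h, while the partners stay level.

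Rpl3l, the muscle paralogue of Rpl3, was near the detection limit. The 3 control groups held 50, 12 and 2 counts in all at 48, 72 and 96 h, and the early groups 49, 25 and 13. Its fall from 48 to 72 h was called in both arms (-1.99 ± 0.43, adjusted p = 0.000512, in controls, and -1.14 ± 0.37, adjusted p = 0.0184, in the early arm). The call in the early arm was lost with the DESeq2 Wald test and without any one of 4 libraries, early replicates 2 and 3 of 48 h and of 72 h. At 96 h the early group was 6.79 times the control group, with an exact 95% counting interval of 1.54 to 62.0 that covers counting error only. Both control counts were in replicate 1, without which there is no ratio and the interval starts at 1.86. The level of Rpl3 stayed between 879 and 999 CPM.

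Other paralogues with names in l changed less. Rpl7l1, named for its likeness to Rpl7, had the same order of groups on a smaller scale, at 288 ± 2.26, 245 ± 5.07 and 230 ± 8.92 CPM in controls and 290 ± 4.40, 265 ± 8.50 and 253 ± 9.52 CPM in early libraries (n = 3 each). It fell by 0.23 ± 0.04 (log2, adjusted p = 4.86e-05) from 48 to 72 h in controls and by 0.13 ± 0.04 (adjusted p = 0.0103) in the early arm. Rpl7l1 was higher in early libraries by 0.11 ± 0.04 at 72 h (adjusted p = 0.0271) and 0.14 ± 0.04 at 96 h (adjusted p = 0.00561), and by 0.24 at the end of the pulse and 0.20 one day later. The early step of Rpl7l1 and its difference at 72 h were lost on the FPKM scale and by library total. The step was also lost without early replicate 3 of 72 h, and the difference without control replicate 1 or early replicate 2 of 72 h. The difference of Rpl7l1 at the end of the pulse was lost on the FPKM scale. Rps27l, a paralogue of Rps27 and a known p53 target, fell by 0.24 ± 0.05 (adjusted p = 0.000459) from 72 to 96 h in controls and rose by 0.16 ± 0.05 (adjusted p = 0.0132) from 48 to 72 h in the early arm. The latter call was lost without early replicate 1 of either age. Rpl22l1, a paralogue of Rpl22, had 81.3, 75.4 and 68.1 CPM in the early libraries of 72 h, against 102, 96.5 and 80.2 CPM in the controls. It was lower there by 0.31 ± 0.10 (adjusted p = 0.0188), a call lost without control replicate 1 or 2 or early replicate 3 of 72 h. It made up 14.5% ± 0.798 of the FPKM of its pair in that group, the lowest of the 6 groups, and 21.1% ± 2.42 in controls of 96 h, the highest.

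Many members fell slightly together in the control arm after its pulse. From 72 to 96 h 41 of 87 members were lower and 0 higher, where 27.4% of all tested genes were lower and 27.5% higher. The median change of members was -0.11 (log2) against -0.01 over all genes. At an unadjusted p under 0.05 the numbers were 46 lower and 0 higher, and the DESeq2 Wald test called 39 lower and 0 higher. The largest falls outside the 4 paralogues were in Rps12 (-0.31 ± 0.08, adjusted p = 0.00474), Rpl8 (-0.30 ± 0.05, adjusted p = 2.36e-05) and Rpl27 (-0.25 ± 0.05, adjusted p = 0.000486). Rpl8 had 2080, 1960 and 1990 CPM at 72 h and 1680, 1640 and 1580 CPM at 96 h, without overlap. Both subunits took part, with 15 of 35 small-subunit and 26 of 52 large-subunit genes called. Without control replicate 1 of 72 h the count was 27 and without the 3 controls numbered 3 it was 34. Across the other scalings, tests and filters it was 23 to 44.

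**Figure D4:**
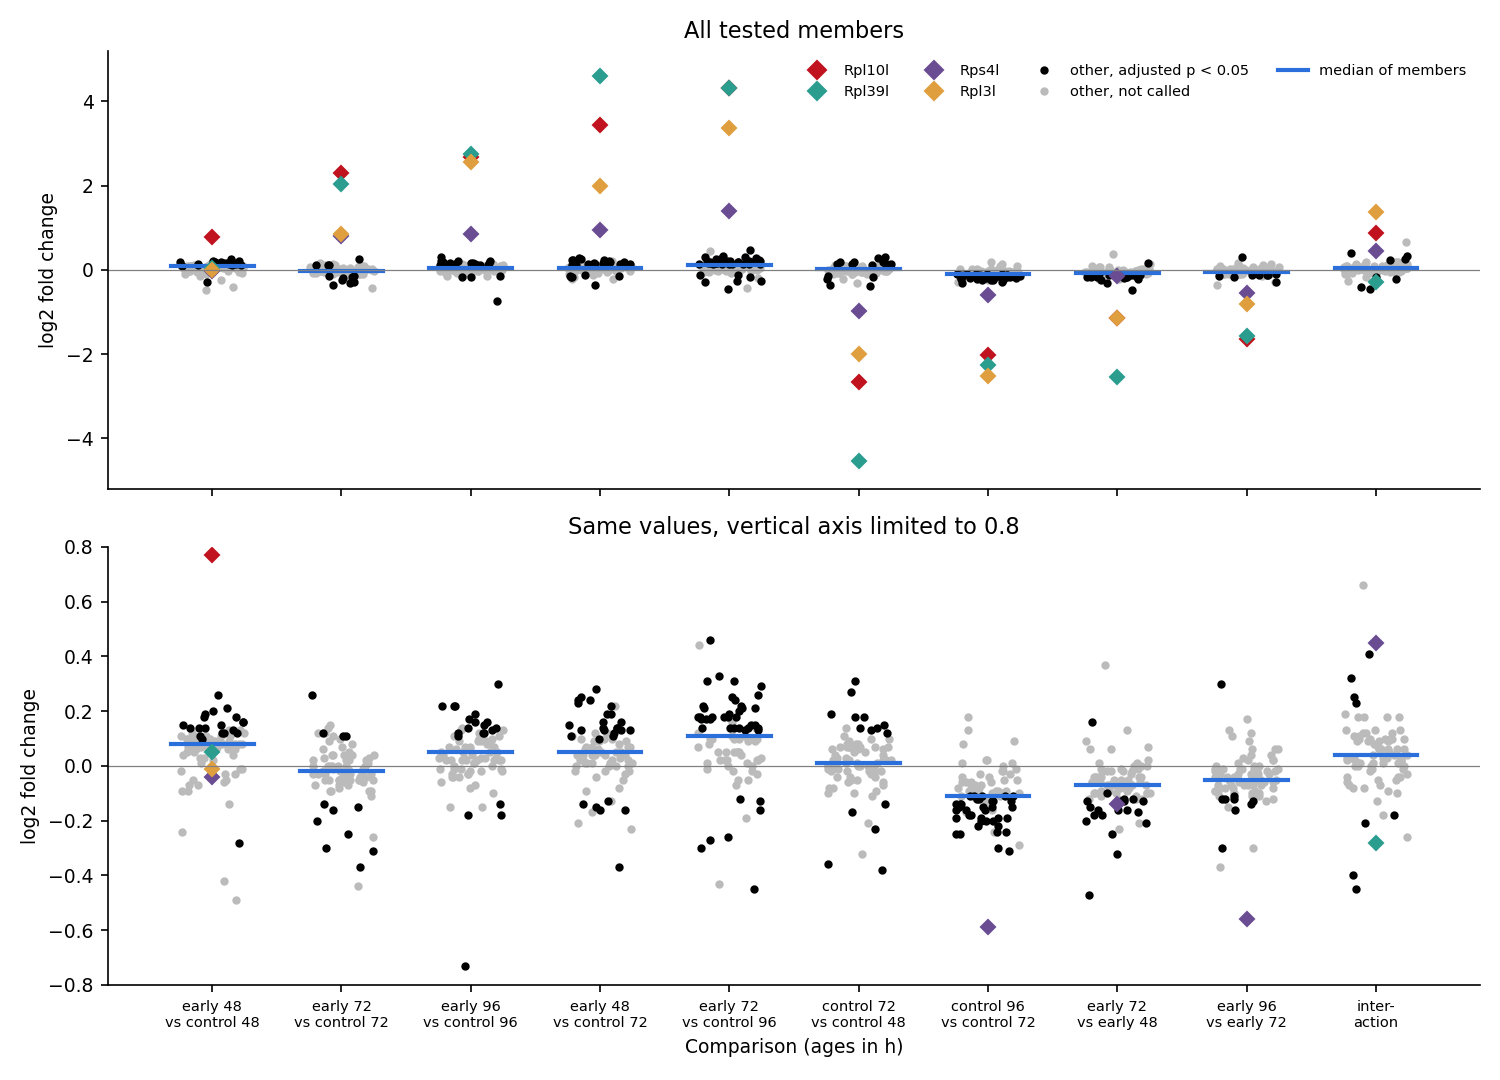
Log2 fold change of each of 87 tested members in 10 comparisons (edgeR, TMM), with all values above and the vertical axis limited to 0.8 below, where larger changes are not drawn. Diamonds mark 4 paralogues, black points other members with adjusted p under 0.05, grey points those not called, and blue lines the median of the members. Apart from the diamonds nearly all points lie within 0.5 of 0, and from 72 to 96 h in controls the called members are all lower.

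In the early arm most of the called members were lower as well. From 48 to 72 h 22 members were lower and 1, Rps27l, higher (21.9% and 20.7% of all tested genes), with a median of -0.07. The falls besides Rpl10l, Rpl39l and Rpl3l included Rps29 (-0.25 ± 0.05, adjusted p = 0.000904), Rpl22 (-0.21 ± 0.04, adjusted p = 0.000443) and the stalk protein gene Rplp1 (-0.20 ± 0.04, adjusted p = 0.00157). Rplp1 had 1250, 1330 and 1270 CPM at 48 h and 1130, 1120 and 1120 CPM at 72 h, without overlap. The calls of Rplp1 and Rpl22 were lost on the FPKM scale, and that of Rplp1 also by library total. Large-subunit genes made up 17 of the 22. Scaled by library total alone the numbers were 6 lower and 6 higher, where 13.5% of all genes were lower and 27.7% higher. On log2(FPKM + 1) they were 3 lower and 5 higher, where 12.1% of all genes were lower and 28.7% higher. The median of the members less that of all genes was -0.07 in counts, where scaling cannot change it, and -0.04 on FPKM. The count was 12 without early replicate 2 of 48 h and 13 without early replicate 3 of 72 h.

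From 72 to 96 h in the early arm 11 members were lower and 1, Rpl22l1, higher (17.6% of all tested genes in each direction). This count rested on single libraries more than any other. Without early replicate 3 of 96 h, the library with the highest share of ribosomal protein counts, 34 were lower and 0 higher. Without any one of the other 5 libraries 3 to 5 were lower. By library total alone 3 were lower and 4 higher, where 14.1% of all genes were lower and 22.2% higher. Apart from Rpl10l, Rpl39l and Rps4l, the largest fall called was in Rpl13 (-0.30 ± 0.11, adjusted p = 0.0398), whose 3 libraries had 543, 563 and 557 CPM at 72 h and 422, 474 and 457 CPM at 96 h. That call was lost without any one of the 6 libraries.

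During the pulse of the control arm, from 48 to 72 h, the group as a whole did not shift on the TMM scale: 10 members were higher and 9 lower (31.1% and 30.3% of all tested genes), with a median of 0.01 for members and for all genes. By library total alone 47 were higher and 7 lower, a scale on which 38.4% of all genes were higher and 24.3% lower. Small-subunit genes were among the rises. Rps20, which sits in the head of the small subunit, had 876, 836 and 753 CPM at 48 h and 1100, 990 and 977 CPM at 72 h, a rise of 0.31 ± 0.06 (adjusted p = 0.000363) without overlap. Rps15a rose by 0.27 ± 0.06 (adjusted p = 0.000373) and Rps9 by 0.18 ± 0.04 (adjusted p = 0.00112). Rps20 and Rps9 kept their calls under every alternative, and Rps15a lost it on the FPKM scale. Beside the paralogues, the falls included Rpl13 (-0.36 ± 0.11, adjusted p = 0.00785), which was lost on the FPKM scale and without control replicate 1 of 48 h.

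Between arms of the same age the members differed little as a group. At 48 h, when the early arm had just ended its pulse and the controls were untreated, 20 members were higher and 1 lower in early libraries (23.0% and 20.7% of all genes), with a median of 0.08. Examples were Rpl10 (given above), Rps20 (0.19 ± 0.06, adjusted p = 0.0247), a head protein of the small subunit, and Rps4x (0.16 ± 0.04, adjusted p = 0.00477). Rps20 had 876, 836 and 753 CPM in controls and 930, 942 and 936 CPM in early libraries, without overlap. The call of Rps20 was lost in 8 of 18 alternatives. Among them were FPKM and leaving out control replicate 3 or any one of the early libraries of 48 h. The call of Rps4x was lost on the FPKM scale. The count of higher members was 13 without control replicate 1 of 48 h, 10 without its replicate 3, 9 without early replicate 2 and 8 without early replicate 3. Scaling by library total gave 11 higher and 2 lower, where 21.0% of all genes were higher and 22.8% lower.

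At 72 h 7 members were higher and 8 lower in early libraries (21.7% and 23.2% of all genes), with a median of -0.02. Besides Rpl10l, Rpl39l and Rps4l the higher ones included Rps23 (0.12 ± 0.05, adjusted p = 0.0363), Rpl7l1 and Rpsa (each 0.11, with adjusted p of 0.0271 and 0.0492). The calls of Rps23 and Rpsa were each lost in 9 of 18 alternatives. Among them were library total, FPKM and leaving out any one of the early libraries of 72 h. Lower were Rpl13a (by counts only, as its FPKM did not pass), Rpl22l1, Rps20 (-0.25 ± 0.06, adjusted p = 0.00418), Rps9 (-0.20 ± 0.04, adjusted p = 0.000822), Rpl39, Rplp1, Rpl15 and Rps15a. Rps15a was lower by 0.30 ± 0.06 in counts (adjusted p = 0.000271), but on log2(FPKM + 1) its change was 0.00. Scaling by library total gave 4 higher and 16 lower, where 19.3% of all genes were higher and 26.7% lower. Without early replicate 2 of 72 h 4 were higher, and without control replicate 1 of 72 h 5 were lower.

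At 96 h 20 members were higher and 4 lower in early libraries (29.5% and 29.6% of all genes), with a median of 0.05. Rpl27 and Rps27l were each higher by 0.22 ± 0.05 (adjusted p = 0.00142 and 0.000866). Rpl27, a large-subunit protein, had 276, 250 and 270 CPM in controls and 312, 294 and 322 CPM in early libraries. Without early replicate 3 of 96 h 12 members were higher and 6 lower, and without control replicate 3 of 96 h 12 were higher.

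The arms were also aligned by their pulse. At the end of each pulse, early 48 h against control 72 h, 26 members were higher and 6 lower in early libraries (29.5% and 31.7% of all genes), with a median of 0.05. The lower ones were Rps15a (-0.37 ± 0.06, adjusted p = 1.93e-05), Rpl39, Rpl41, Rps2, Rps27l and Rps9. The call of Rps15a was lost on the FPKM scale, that of Rpl39 in 7 of 18 alternatives and that of Rps2 in 5. By library total alone 8 were higher and 19 lower, where 21.3% of all genes were higher and 40.4% lower. On log2(FPKM + 1) 4 were higher and 35 lower, where 18.9% of all genes were higher and 43.8% lower. The median of the members less that of all genes was 0.07 in counts, where scaling cannot change it, and 0.04 on FPKM. Without control replicate 2 of 72 h 17 were higher. One day after each pulse, early 72 h against control 96 h, 38 were higher and 7 lower (34.3% and 35.4% of all genes), with a median of 0.11. Rps21 was higher by 0.33 ± 0.08 (adjusted p = 0.00139) and Rpl8 by 0.31 ± 0.05 (adjusted p = 7.14e-06). Rps15a, Rps20 and Rpl22l1 were lower by 0.27 ± 0.06, 0.26 ± 0.06 and 0.45 ± 0.10, and the call of Rps15a was lost on the FPKM scale. This comparison shares the control libraries of 96 h with the fall from 72 to 96 h, so the 2 counts do not stand as separate evidence. Pou5f1, the pluripotency factor, differed between these groups too, at 1320, 1340 and 1330 CPM in early libraries of 72 h and 474, 425 and 154 CPM in controls of 96 h, and its part in the result was not tested.

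Whether the step after the pulse differed between the arms was tested as an interaction, the early step from 48 to 72 h less the control step from 72 to 96 h. For 6 members the value was above 0 and for 4 below (22.8% and 21.7% of all genes). Rpl10l (0.87 ± 0.26, adjusted p = 0.0118), Rps4l (0.45 ± 0.11, adjusted p = 0.00371) and Rps27l (0.41 ± 0.07, adjusted p = 0.000142) lost less, or gained, in the early arm. The call of Rpl10l was lost on log2(FPKM + 1), whereas those of Rps4l and Rps27l held under every alternative. Rpl22l1 (-0.45 ± 0.14, adjusted p = 0.0158) and Rpl22 (-0.21 ± 0.06, adjusted p = 0.00485) went the other way in counts, but on log2(FPKM + 1) Rpl22 turned to 0.16. By library total alone 29 members were above 0 and 2 below, where 28.1% of all genes were above and 16.3% below. In counts the median of the members less that of all genes was 0.04, which scaling cannot change.

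Members with particular roles changed little where they were called. Rplp1 of the stalk fell by 0.25 ± 0.04 (adjusted p = 8.59e-05) from 72 to 96 h in controls, beside its early fall given above, and was lower in early libraries at 72 h (-0.15 ± 0.04, adjusted p = 0.00799), a call lost without control replicate 1 of 72 h. Its partner Rplp2 fell by 0.18 ± 0.06 (adjusted p = 0.0198) over the same control step, and Rpl10a rose by 0.14 ± 0.04 (adjusted p = 0.00513) and then fell by 0.14 ± 0.04 (adjusted p = 0.00462) over the 2 control steps. The fall of Rplp2 was lost without control replicate 1 of 72 h or replicate 2 or 3 of 96 h. Rplp0, the base of the stalk, was called higher at 72 than at 48 h in controls (0.13 ± 0.04, adjusted p = 0.00727) and lower from 72 to 96 h (-0.11 ± 0.04, adjusted p = 0.0255). The fall of Rplp0 was lost without the same 3 libraries, each left out in turn. Rpl5 and Rpl11, which bind 5S RNA and can restrain MDM2, had 640 to 808 CPM and 550 to 634 CPM over the 18 libraries. Rpl5 was called in 1 comparison, a fall of 0.13 ± 0.04 from 48 to 72 h in the early arm (adjusted p = 0.0216), and Rpl11 in none. The call of Rpl5 was lost in 8 of 18 alternatives, among them library total, FPKM and leaving out early replicate 2 of 48 h or replicate 2 or 3 of 72 h. Rpl38, known for its part in Hox mRNA translation, fell by 0.18 ± 0.06 (adjusted p = 0.0109) from 72 to 96 h in controls, which was lost without control replicate 1 of 72 h. Rps6, the phosphorylated target of S6 kinase, was called in none of the 10 comparisons and had 546 to 637 CPM. Rps19, mutated in Diamond-Blackfan anaemia, fell by 0.14 ± 0.05 (adjusted p = 0.0252) over the same step as Rpl38. The call of Rps19 was lost in 7 of 18 alternatives, among them FPKM and leaving out control replicate 1 or 2 of 72 h or replicate 3 of 96 h. Rps27a, which is made as a fusion with ubiquitin, was higher by 0.19 ± 0.05 (adjusted p = 0.00251) in early 72 h than in control 96 h libraries.

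Of the genes outside the name rule, Fau, a fusion that yields the small-subunit protein eS30, and Rack1, which sits on the small subunit, fell with the members from 72 to 96 h in controls, by 0.27 ± 0.05 (adjusted p = 9.23e-05) and 0.17 ± 0.04 (adjusted p = 0.00145). Neither was called between arms at 72 or 96 h. Rpl36al and Rps27rt had at most 1.35 and 2.03 CPM in any library.

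Genes that assemble the ribosome fell with age in both arms. Of 29 ribosome biogenesis genes 0 were higher and 23 lower from 48 to 72 h in controls, with a median of -0.32, and 25 lower from 72 to 96 h, with a median of -0.31 (30.3% and 27.4% of all tested genes were lower). In the early arm 21 and 18 were lower at the same ages, with medians of -0.22 and -0.18 (against 21.9% and 17.6%). Early libraries were higher in 16 of the 29 at 72 h, in 24 at 96 h and in all 29 one day after the pulse (against 21.7%, 29.5% and 34.3%). Nhp2, a core protein of H/ACA particles that pseudouridylate ribosomal RNA, differed by 0.84 ± 0.07 (adjusted p = 2.13e-09) in the last comparison. Ddx21, a nucleolar helicase, had 894, 909 and 861 CPM in controls of 48 h, 659, 720 and 689 CPM at 72 h and 439, 453 and 543 CPM at 96 h. From 48 to 72 h in controls the ribosomal protein genes had a median of 0.01 beside this fall. The difference between the lists was not tested.

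Of 11 RNA polymerase I genes 6 fell and 2 rose from 48 to 72 h in controls, and 7 fell and 1 rose from 72 to 96 h, where 30.3% and 27.4% of all genes fell. Rrn3, the factor that starts their transcription cycle, fell by 0.45 ± 0.05 and 0.77 ± 0.05 (log2, adjusted p = 1.47e-07 and 2.61e-10). Of 15 translation factors and other genes with TOP mRNAs 11 fell and 0 rose from 48 to 72 h in the early arm (21.9% of all genes fell), and 5 rose and 0 fell from 72 to 96 h (17.6% rose). In controls 7 fell and 1 rose from 72 to 96 h (27.4% fell), and at 48 h 7 were higher and 0 lower in early libraries (23.0% were higher). The mitochondrial ribosomal proteins, made by the nucleus for a separate ribosome, were higher in early libraries at 96 h in 40 of 76 and lower in 4 (29.5% and 29.6% of all genes). Among 8 hosts of small nucleolar RNAs 7 were lower in early libraries at 72 h (23.2% of all genes), led by Snhg8 (-0.97 ± 0.10, adjusted p = 3.4e-07), and at 96 h 2 were higher and 2 lower.

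**Figure D5:**
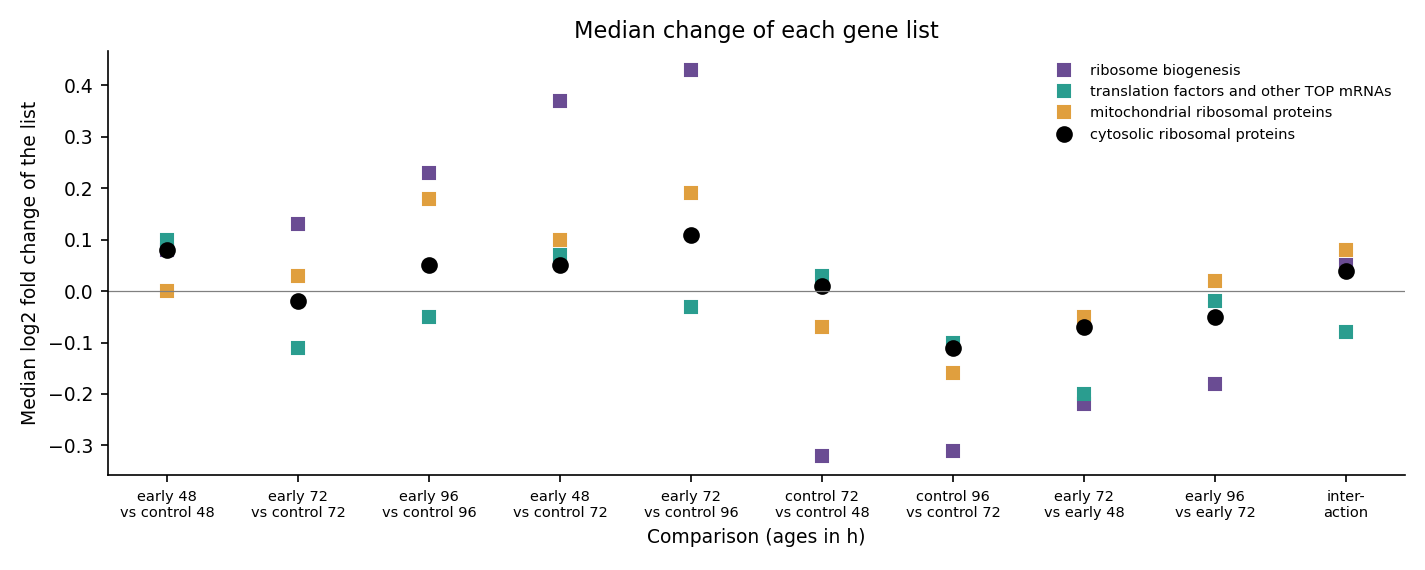
Median log2 fold change of the 87 tested cytosolic ribosomal protein genes (black circles) and of 3 other gene lists (coloured squares) in the 10 comparisons. The ribosome biogenesis genes reach 0.43 and -0.32, while the medians of the ribosomal proteins lie between -0.11 and 0.11.

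Regulators of ribosome synthesis changed in both directions. Mycn, the MYC-family gene of early embryos, had 254, 244 and 250 CPM in controls of 48 h, 39.1, 33.3 and 37.1 CPM at 72 h and 130, 121 and 84.6 CPM at 96 h. Early libraries had 150, 146 and 178 CPM, 164, 166 and 163 CPM, and 100, 98.1 and 101 CPM. The control step from 48 to 72 h was -2.77 ± 0.12 (adjusted p = 6.67e-13). Over that step the ribosomal proteins had a median of 0.01 on the TMM scale, while their share of counts went from 5.902% to 6.417%. No relation to Mycn was tested. Myc was called in none of the 10 comparisons, with 35 to 60.9 CPM. Mxd4, a MYC antagonist, rose in each arm at each step and was lower in early libraries at each age, by 1.09 ± 0.14 (adjusted p = 1.75e-06) at 96 h. Eif4ebp1, the translation repressor downstream of mTOR, fell by 1.03 ± 0.07 (adjusted p = 2.54e-10) and 0.60 ± 0.07 (adjusted p = 7.15e-07) over the 2 control steps.

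Larp1, which binds TOP mRNAs, was lower in 1 group. It had 455, 451 and 412 CPM in controls of 96 h and 668 to 808 CPM in the other 15 libraries, a control step of -0.75 ± 0.06 (adjusted p = 2.81e-09). Early libraries of 96 h were higher by 0.80 ± 0.06 (adjusted p = 9.67e-10). The same group had the lowest mean summed level of ribosomal protein mRNA, with libraries at 56030 to 58340 CPM. Early replicates 1 and 2 of 96 h lay in that range, at 56980 and 57480 CPM, and replicate 3 above it, at 63950 CPM. No relation of this sum to Larp1 was tested.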

How the data were processed

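Polyadenylated RNA of 18 pooled gastruloid samples was sequenced. The authors deposited a table of raw counts per gene and a table of FPKM, which per the submitters' processing notes involved cutadapt 4.0, STAR 2.7.8a and Cufflinks 2.2.1 with the build mm10. How counts were assigned to overlapping genes, and whether strand was used, is not given in the sources used here. The members and all gene lists were chosen with earlier results of these data known.

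From the counts, genes kept by filterByExpr (16041) were fitted with edgeR 4.0.16 in R 4.3.3, with TMM scaling, 1 coefficient for each of 6 groups and quasi-likelihood tests of 10 contrasts, adjusted over all tested genes by Benjamini-Hochberg. FPKM values deposited by the authors were used for levels per length and, with limma 3.58.1 on log2(FPKM + 1) for genes of at least 1 FPKM in 3 libraries, as an alternative. DESeq2 1.42.0, other scalings, filters and designs, and leaving out each library were the others. Depth was 14841728 to 24536538 counts per library, so genes with few counts carry wide errors.

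Genes are named by rule: the 5 largest called rises and falls per comparison with at least 5 CPM, the paralogues and their partners, members with particular roles, and the 5 highest, lowest, steadiest and most variable members. Of other lists, the 3 largest called changes per comparison and any regulator could be named. Rpl3l, Rpl39l and Rpl24 come from the paralogue list or were singled out after their values were seen. Results of some members and listed genes are not reported here, though they stay in the counts. Coding sequences, and for Rps4l the transcript, were aligned with Biopython 1.88, and promoters come from RefSeq (GRCm38.p6).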

Additional observations from a re-analysis of the deposited data

Results flagged for a closer look

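For 10 members the early step from 48 to 72 h differed from the control step from 72 to 96 h by the interaction test of edgeR, at an adjusted p under 0.05 over all tested genes. Of 87 tested members 6 were above 0 and 4 below (6.9% and 4.6%), fewer than the 22.8% and 21.7% of all tested genes. Rpl10l had the largest value, 0.87 (log2, early step less control step), followed by Rps4l at 0.45 and Rps27l at 0.41. Rpl27 stood at 0.32, Rps2 at 0.25 and Rpl8 at 0.23. Values below 0 were those of Rpl22l1 (-0.45), Rpl13a (-0.40) and Rpl22 (-0.21).

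Rps4l, Rps27l and Rpl27 kept their call under all 24 alternatives. Rpl10l lost it under 2, Rps2 under 3 and Rpl22l1 under 5. The counts of Rpl13a are treated as uncertain, as given above, and the part of its overlap with another gene was not tested. Its call was lost on the FPKM scale. Both steps are 24 h long and follow the end of a pulse, but gastruloid age differs between them by 1 day, so arm and age cannot be told apart.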

How the results depend on the processing

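FPKM values and scaling by library total moved more counts of called members than the other choices did. Only counts that moved by over 1.5 times are given. The shares of all genes moved as well, so a moved count is not in itself particular to the members. Those shares are given for library totals with the results above and for log2(FPKM + 1) there or below. For the remaining settings they are not given. With library totals alone the numbers were 11 higher and 2 lower for early against control at 48 h, 4 higher and 16 lower for early against control at 72 h, 8 higher and 19 lower for the end of the pulse and 47 higher for the control step from 48 to 72 h. There were also 6 higher and 6 lower for the early step from 48 to 72 h, 4 higher and 3 lower for the early step from 72 to 96 h and 29 higher and 2 lower for the interaction. On log2(FPKM + 1) the numbers were 7 higher and 2 lower for early against control at 48 h, 16 lower for early against control at 72 h, 1 lower and 2 with at least 1.5-fold for early against control at 96 h and 4 higher and 35 lower for the end of the pulse. There were also 23 higher for one day after the pulse, 44 higher and 4 lower for the control step from 48 to 72 h, 1 higher and 1 with at least 1.5-fold for the control step from 72 to 96 h and 5 higher and 3 lower for the early step from 48 to 72 h. There were also 4 higher and 3 lower for the early step from 72 to 96 h and 28 higher and 1 lower for the interaction. On that scale 18.3% of all genes were higher and 25.5% lower between arms at 48 h. The shares were 17.3% and 28.4% at 72 h and 31.8% and 28.1% at 96 h. They were 31.2% and 38.6% one day after the pulse and 39.1% and 24.0% for the control step from 48 to 72 h. For the control and early steps from 72 to 96 h they were 27.4% and 28.4%, and 25.4% and 11.7%. For the interaction they were 28.4% and 18.2%. With a pseudocount of 0.1 the counts of members were the same except 3 and 2 with at least 1.5-fold for early against control at 96 h and for the control step from 72 to 96 h, and 29 higher and 0 lower for the interaction. Without a filter on FPKM the numbers were 3 higher for early against control at 48 h, 4 higher for early against control at 72 h, 1 lower and 2 with at least 1.5-fold for early against control at 96 h and 4 higher and 25 lower for the end of the pulse. There were also 20 higher for one day after the pulse, 33 higher and 5 lower for the control step from 48 to 72 h, 23 lower and 1 with at least 1.5-fold for the control step from 72 to 96 h and 5 higher and 3 lower for the early step from 48 to 72 h. There were also 3 higher and 3 lower for the early step from 72 to 96 h and 13 higher and 1 lower for the interaction.

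Without a filter on counts the numbers were 3 lower for early against control at 48 h, 2 lower for early against control at 96 h, 2 higher for the early step from 48 to 72 h and 7 lower for the early step from 72 to 96 h. There were also 10 higher for the interaction. With only the groups compared in the fit the numbers were 3 lower for early against control at 48 h, 12 higher for early against control at 72 h, 10 higher, 1 lower and 2 with at least 1.5-fold for early against control at 96 h and 2 with at least 1.5-fold for the control step from 72 to 96 h. There were also 6 higher and 36 lower for the early step from 48 to 72 h. Without the 3 controls numbered 3 the numbers were 13 higher and 2 lower for early against control at 48 h, 1 higher for the control step from 72 to 96 h, 3 higher for the early step from 48 to 72 h and 2 higher for the early step from 72 to 96 h. There were also 10 higher for the interaction. With the DESeq2 Wald test the numbers were 2 lower for early against control at 48 h and 19 lower for the early step from 72 to 96 h. With DESeq2 size factors the numbers were 7 lower for early against control at 96 h. TMM factors from genes outside the name rule and a filter of 1 CPM in 3 libraries left each count within 1.5 times.

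Same-numbered libraries were not paired by the data: over 45 pairs the correlation of their deviations from the group means was -0.06 to 0.158, with 3 over 0.1. With the replicate number as a block the counts were 2 lower for early against control at 48 h and 2 higher for the early step from 48 to 72 h, and no other count moved by over 1.5 times.

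Leaving out 1 library at a time gave 8 to 19 higher and 1 to 3 lower for early against control at 48 h, 4 to 7 higher and 5 to 10 lower for early against control at 72 h, 12 to 26 higher and 1 to 6 lower for early against control at 96 h. It gave 17 to 27 higher and 4 to 6 lower for the end of the pulse, 33 to 42 higher and 6 to 7 lower for one day after the pulse, 7 to 11 higher and 7 to 10 lower for the control step from 48 to 72 h. For the later steps it gave 0 to 1 higher and 27 to 41 lower for the control step from 72 to 96 h, 0 to 2 higher and 12 to 23 lower for the early step from 48 to 72 h, 0 to 1 higher and 3 to 34 lower for the early step from 72 to 96 h. For the interaction it gave 5 to 9 higher and 2 to 5 lower, with 1 to 2 of at least 1.5-fold. For the control step from 72 to 96 h the members with at least 1.5-fold were 3 to 4. Beside the libraries named with the results, single libraries moved these counts: at 96 h lower calls fell to 1 without control replicate 1 and to 2 without control replicate 2 or early replicate 1 or 2, and for the interaction to 2 without early replicate 3 of 72 h or control replicate 1 of 96 h.

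The share held by the members was 17.3%, 18.7% and 17.6% of summed FPKM in the control groups of 48, 72 and 96 h and 18.1%, 18% and 17.6% in the early ones. Without the 100 most abundant other genes it was 7.08%, 7.63% and 6.91%, and 7.39%, 7.44% and 7.34%. Without mitochondrially encoded genes it was 5.97% in controls of 48 h and 6.29% in the early group of 72 h, and with the -ps names 5.94% and 6.26%.

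Of 133 named changes 61 kept direction and side of the threshold under every alternative. On the FPKM scale Rpl13a turned to 0.10 for the control step from 48 to 72 h, to 0.18 for early against control at 48 h and to 0.02 one day after the pulse. Rpl22 turned to 0.16 in the interaction, Rps15a to 0.00 at 72 h between arms, and Rps4x and Rpsa to -0.05 and -0.01 at the end of the pulse. Rps4x was -0.03 there by library total alone. The cause of these moves was not tested. Rps12l1 and Rpl32l had too few counts to test, and few counts also limit Rpl6l, Rpl3l and Rpl39l.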
